A study of Xenopus laevis with 6 samples.

Results

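The SoxE genes *sox8*, *sox9* and *sox10* were followed across the 6 libraries of the series. *Xenopus laevis* is allotetraploid and carries each of them as a long-chromosome (L) and a short-chromosome (S) copy. The members were the rows of the count table whose symbol is one of these names with .L or .S, which gave 6 of 35773 gene models: *sox8.L*, *sox8.S*, *sox9.L*, *sox9.S*, *sox10.L* and *sox10.S*. The rule used names and no measured value, but it was set with earlier results of these data known. *sox8* and *sox10* are also genes that the study had picked from these libraries for their fold changes, so a lower value of them in *kdm5c* MO embryos is not independent evidence.

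SoxE proteins are transcription factors with an HMG box that binds DNA. They act at the border of the neural plate, where neural crest cells are specified, and later in the derivatives of the crest. *sox10* is then known for pigment cells, peripheral glia and enteric neurons, *sox9* for cartilage and the otic placode, and *sox8* overlaps with both in the crest.

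Poly(A)-enriched RNA of whole embryos at Nieuwkoop and Faber stage 32 was sequenced in 2 control libraries, 2 libraries of embryos given *kdm5c* MO and 2 libraries of embryos given *kdm3a* MO. An MO is an antisense morpholino oligonucleotide, and the *kdm5c* MO was designed to block translation of the mRNA of this histone demethylase. *kdm3a* encodes another histone demethylase, and how its MO acts is not given in the sources used here. The labels put both injections at the 2-cell stage, whereas the methods give the 1-cell stage in general and the 2-cell or a later stage for in situ hybridization, without naming the embryos that were sequenced, and the labels of the controls do not say whether these embryos were injected. The strain of the frogs and the number of embryos in a library are not given in the sources used here. The titles of both *kdm3a* MO libraries bear a later date than those of the other 4, so this MO and that date cannot be told apart. One label counts the second control as 2 and another as 3, and the number in the title was kept. Nothing says that the replicates came from separate clutches, so the p-values measure only the spread between these libraries, which may be technical.

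The libraries held 12838245 to 20217436 counts, and 3 counts corresponded to between 0.143 and 0.303 CPM (counts of a gene scaled to one common library total). Values per library are CPM after TMM scaling (trimmed mean of M values) over all 6 libraries. *kdm5c* MO 1 had a TMM factor of 0.710 and the other 5 had factors of 1.02 to 1.16, and its 100 most abundant genes took 25.8% of the counts, against 17.2% to 19.0% elsewhere. The mRNA of the targets does not check the labels of an MO that blocks translation. *kdm5c.L* stood between 108 and 142 CPM in the 6 libraries, and *kdm5c.S* at 34.6 CPM in *kdm5c* MO 1 and 61.2 to 72.3 CPM in the other 5. *kdm3a.L* was at 408 and 374 CPM in the *kdm3a* MO libraries against 61.5 to 122 CPM in the other 4, and *kdm3a.S* at 432 and 239 CPM against 95.2 to 262 CPM, which overlapped. Markers of muscle, neurons, epidermis, retina and lens, heart, liver and pancreas, notochord and pronephros were present in all libraries, as whole embryos hold these tissues, but the blood markers summed to 1.41 CPM in control 1 and to between 30.9 and 243 CPM in the other 5. In control 1 *hbd.L* and *hbd.S*, both globin genes, had 0 counts. The labels give stage 32 for every library, and whether the embryos of control 1 were as far in development as the others was not tested. Control 1 and control 2 differed by 1.97-fold or more in all 6 SoxE copies, so fold changes and several gene lists against control are also given without control 1.

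All 6 SoxE copies were well counted in every library, from 70 counts for *sox8.S* in *kdm5c* MO 1 to 969 counts for *sox9.S* in *kdm3a* MO 3. Most low counts in the table were even, at 89.7% to 95.04% of the counts up to 20, so both reads of a pair appear to enter the count and the number of fragments is smaller. How reads that match both copies of a gene were assigned is not given in the sources used here, which leaves the division between L and S uncertain.

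*sox10*, the SoxE gene of the pigment and glial lineages, was measured at 40.4 CPM in control 1 and 14.5 CPM in control 2 for the L copy, at 9.19 and 14.8 CPM in *kdm5c* MO 1 and 2, and at 14.1 and 13.9 CPM in *kdm3a* MO 3 and 4. *sox10.S* was at 57.3 and 17.3 CPM in the controls, 13.7 and 17.5 CPM in the *kdm5c* MO libraries and 15.1 and 17.9 CPM in the *kdm3a* MO libraries. Control 1 was the highest library for both copies, at 2.73 times the next highest library for *sox10.L* and 3.21 times for *sox10.S*. The remaining 5 libraries lay close together, over a 1.61-fold range for *sox10.L* and a 1.30-fold range for *sox10.S*, and control 2 lay within that range for both copies.

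*sox8* showed the same order of the controls. *sox8.L* was at 40.9 CPM in control 1 and 10.4 CPM in control 2, at 16.8 and 9.33 CPM in *kdm5c* MO 1 and 2, and at 10.9 and 14.4 CPM in *kdm3a* MO 3 and 4. *sox8.S* was at 25.3 and 8.89 CPM in the controls, 7.07 and 7.66 CPM in the *kdm5c* MO libraries and 8.61 and 12.44 CPM in the *kdm3a* MO libraries. Control 1 was again the highest library, by 2.44 times for *sox8.L* and 2.04 times for *sox8.S* over the next highest. Among the other 5 libraries *sox8.L* ranged over 1.798-fold and *sox8.S* over 1.76-fold, with *kdm5c* MO 1 highest for *sox8.L* and lowest for *sox8.S*.

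*sox9*, the SoxE gene best known for cartilage, stood the other way round in the controls. *sox9.L* was at 18.2 CPM in control 1 and 35.9 CPM in control 2, at 12.1 and 24.3 CPM in *kdm5c* MO 1 and 2, and at 45.4 and 35.3 CPM in *kdm3a* MO 3 and 4. *sox9.S* was at 21.0 and 47.6 CPM in the controls, 24.8 and 27.5 CPM in the *kdm5c* MO libraries and 46.1 and 35.8 CPM in the *kdm3a* MO libraries. Control 1 was the lowest library for *sox9.S* and second lowest, after *kdm5c* MO 1, for *sox9.L*, and both *kdm3a* MO libraries stood above both *kdm5c* MO libraries for each copy. Control 2 was 1.97 and 2.27 times control 1 for *sox9.L* and *sox9.S*, whereas control 1 was 2.78 to 3.93 times control 2 for the 4 *sox8* and *sox10* copies.

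**Figure D1:**
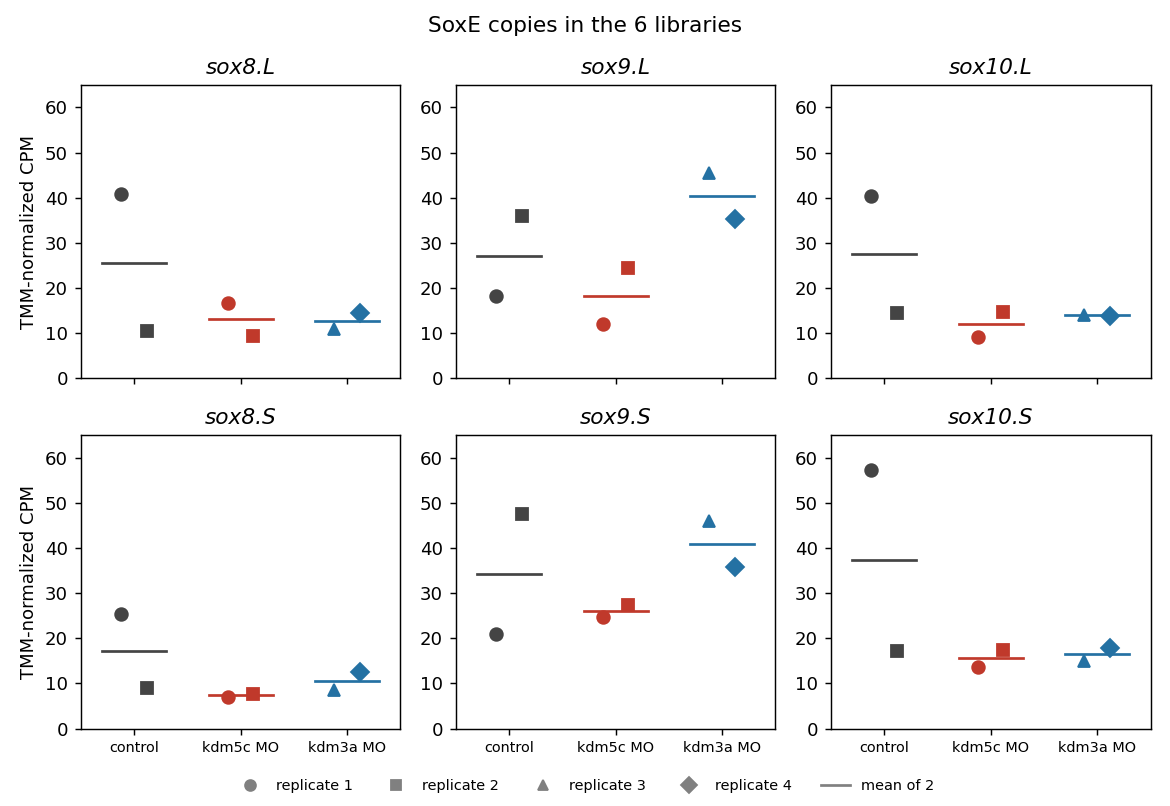
TMM-normalized CPM (vertical axes, linear from 0) of the 6 SoxE copies in control, *kdm5c* MO and *kdm3a* MO libraries, with 1 point per library, its shape giving the replicate number, and a line at the mean of the 2 libraries of a group. Control 1 is the highest point for both *sox8* and both *sox10* copies, up to 57.3 CPM for *sox10.S*, and lies low for both *sox9* copies.

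Of 27327 genes, 781 (2.86%) stood more than 2-fold above every other library in control 1, and 22.8% had their highest value there. The share more than 2-fold above all others was 4.69% in *kdm5c* MO 1, 2.07% in *kdm3a* MO 3 and 0.274% to 0.71% in the other 3 libraries, so control 1 was 1 of 3 libraries with many such genes. All 4 *sox8* and *sox10* copies were among those 781, and neither *sox9* copy was. By library size only *sox8.S* was at 25.9 CPM in control 1 and 13.8 CPM in *kdm3a* MO 4, less than 2-fold apart, so its place depended on the scaling.

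By group mean, *sox10.L* was at 27.4 ± 18.3 CPM in controls, 14.0 ± 0.156 CPM in *kdm3a* MO and 11.99 ± 3.96 CPM in *kdm5c* MO embryos (SD, n = 2 libraries for this and every group value). *sox10.S* came in the same order, at 37.3 ± 28.3, 16.5 ± 1.96 and 15.6 ± 2.67 CPM. The mean of *sox8.L* was 25.6 ± 21.5 CPM in controls, 13.1 ± 5.26 CPM in *kdm5c* MO and 12.7 ± 2.45 CPM in *kdm3a* MO embryos. For *sox10* and *sox8.L* the control SD was larger than every difference between group means, and no neighbours in these orders differed beyond their spread. *sox8.S* was at 17.1 ± 11.6 CPM in controls, 10.5 ± 2.71 CPM in *kdm3a* MO and 7.36 ± 0.416 CPM in *kdm5c* MO embryos. For *sox9.L* the order was *kdm3a* MO at 40.4 ± 7.17, control at 27.1 ± 12.5 and *kdm5c* MO at 18.2 ± 8.64 CPM, and *sox9.S* followed the same order at 41.0 ± 7.26, 34.3 ± 18.8 and 26.1 ± 1.84 CPM. Control overlapped with both MO groups for both *sox9* copies, and only *kdm3a* MO and *kdm5c* MO, at the ends of the order, were apart.

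The first comparison asked whether the crest genes were lower in *kdm5c* MO than in control embryos. All 6 SoxE copies were lower on average, and none passed the limits of a false discovery rate (FDR) below 0.01 and a change above 4-fold. In edgeR's exact test with Benjamini-Hochberg adjustment over 26152 genes, the log2 fold change was -1.25 for *sox10.S* (standard error 0.75, p = 0.109) and -1.19 for *sox10.L* (standard error 0.76, p = 0.129). The exact test gave -1.21 for *sox8.S* (standard error 0.80, p = 0.144) and -0.97 for *sox8.L* (standard error 0.84, p = 0.263). For *sox9* the exact test gave values nearer to 0, at -0.57 for *sox9.L* (standard error 0.72, p = 0.437) and -0.39 for *sox9.S* (standard error 0.67, p = 0.572). The adjusted p was 1 for all 6 copies. The 95% intervals ran from -2.73 to 0.23 for *sox10.S* and from -1.71 to 0.93 for *sox9.S*, so both a change beyond -2 and no change of *sox10.S* lay within its interval.

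The count of genes past both limits was 0 of 26152 (0%) in this comparison, with 0 by edgeR's quasi-likelihood test and 7 by DESeq2. At an unadjusted p below 0.05, 1.01% of the genes tested had a lower level after *kdm5c* MO and 3.29% a higher one, and 0 of the 6 SoxE copies were among either. *sox8.S* alone had both of its *kdm5c* MO values under both control values, 1 of 6 copies, while 17.9% of all genes tested did so. With CPM by library size only, a scaling tried after the data were seen, 4 of 6 copies did so, beside 28.0% of all genes. These were *sox8.L*, *sox8.S*, *sox10.L* and *sox10.S*. For *sox8.L*, *kdm5c* MO 1 was then below control 2, at 11.91 against 12.09 CPM. For *sox10.L* and *sox10.S*, *kdm5c* MO 2 was then below control 2, at 15.19 against 16.85 CPM and at 17.99 against 20.04 CPM.

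The size of these differences depended on which control was kept. Without control 1 the log2 fold change in *kdm5c* MO embryos was 0.32 for *sox8.L*, -0.27 for *sox8.S*, -0.27 for *sox10.L* and -0.14 for *sox10.S*. Without control 2 the same copies gave -1.64, -1.77, -1.74 and -1.87, with the smallest p of 0.0148 for *sox10.S* (exact test of edgeR, adjusted p = 0.336). *sox9* moved the opposite way, to -0.98 for *sox9.L* and -0.86 for *sox9.S* without control 1, and to 0.0086 and 0.32 without control 2. Of the 6 copies, *sox8.S*, *sox10.L* and *sox10.S* thus kept a negative sign whichever library was left out.

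*kdm3a* MO embryos were compared with the same 2 controls, so both sets of fold changes share control 1 and are given side by side. In *kdm3a* MO embryos the log2 fold change was -1.20 for *sox10.S* (standard error 0.74, p = 0.118) and -0.99 for *sox10.L* (standard error 0.72, p = 0.181) in edgeR's exact test. The exact test gave -1.03 for *sox8.L* (standard error 0.81, p = 0.219) and -0.72 for *sox8.S* (standard error 0.78, p = 0.372). *sox9* had a positive sign, at 0.54 for *sox9.L* (standard error 0.63, p = 0.404) and 0.22 for *sox9.S* (standard error 0.66, p = 0.745). None of the 6 copies was among the 33 of 26491 genes (0.125%) past both limits, the adjusted p was 1 for each, and the genes past the limits numbered 0 by the quasi-likelihood test and 82 by DESeq2. At an unadjusted p below 0.05, 1.28% of genes were lower and 1.92% higher, with 0 of the 6 copies in either class.

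*sox10.L* alone had both *kdm3a* MO libraries below both controls, 1 of 6 copies beside 15.0% of all genes, and 0 of 6 had both above, beside 17.1%. By library size only *sox10.S* joined it, at 15.7 and 19.8 CPM against 58.6 and 20.04 CPM in the controls, which made 2 of 6 copies beside 16.4% of all genes. Here too the values depended on which control was kept. Without control 1 the log2 fold changes were -0.068 for *sox10.L* and -0.079 for *sox10.S*, 0.27 for *sox8.L* and 0.23 for *sox8.S*. *sox9.L* was then at 0.15, and *sox9.S* changed sign to -0.23. Without control 2 the log2 fold changes were -1.54 for *sox10.L*, -1.81 for *sox10.S*, -1.70 for *sox8.L* and -1.27 for *sox8.S*. *sox9.L* and *sox9.S* were then at 1.13 and 0.95.

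Between the MO groups, where no control enters, *sox9.L* showed the widest gap. The log2 fold change of *kdm3a* MO over *kdm5c* MO was 1.14 for *sox9.L* (standard error 0.60, p = 0.0656) and 0.64 for *sox9.S* (standard error 0.54, p = 0.241) in edgeR's exact test, both at 1 after adjustment. With both copies summed the exact test gave 0.87 (standard error 0.52, p = 0.0976). *sox8.S*, at a log2 fold change of 0.51, was close to *sox9.S*. The MO groups were nearer to each other for the remaining copies, at -0.049 for *sox8.L*, 0.21 for *sox10.L* and 0.067 for *sox10.S*. The standard errors of the *sox8* and *sox10* copies were 0.63 to 0.74. None of the 6 copies was among the 14 of 26092 genes (0.0537%) past both limits, which were 0 by the quasi-likelihood test and 23 by DESeq2. At an unadjusted p below 0.05, 3.13% of genes were lower and 1.52% higher in *kdm3a* MO embryos, and 0 of 6 copies were among them.

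Both *kdm3a* MO libraries stood above both *kdm5c* MO libraries for *sox8.S*, *sox9.L* and *sox9.S*, 3 of 6 copies, where 18.4% of all genes did so. The same 3 copies did so by library size only, beside 27.0% of all genes. Leaving out each of the 4 libraries in turn gave 0.75 to 1.75 for *sox9.L* and 0.46 to 0.81 for *sox9.S*. In whole embryos, a lower value of a crest gene may be fewer cells that express it or less of its RNA in each cell, and bulk libraries cannot tell these apart.

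**Figure D2:**
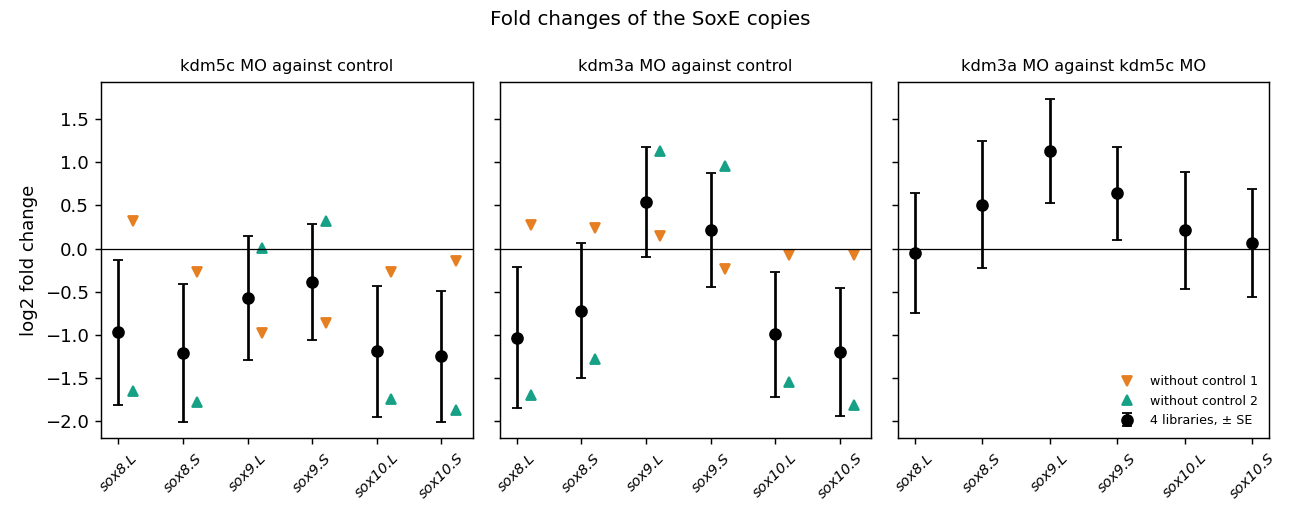
Log2 fold changes of the 6 SoxE copies (vertical axis) in the 3 comparisons, from 4 libraries each with the standard error as bars, and, in the comparisons with control, the values without control 1 or without control 2 as triangles. For *sox10.S* in *kdm5c* MO embryos the value of -1.25 becomes -0.14 without control 1 and -1.87 without control 2.

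The make-up of the SoxE reads within a library does not depend on scaling between libraries. Gene lengths were not used, so the ratios below are ratios of counts, and only their change from library to library can be read. *sox9* gave 19.3% of all SoxE counts in control 1 and 62.04% in control 2, 44.1% and 51.2% in *kdm5c* MO 1 and 2, and 65.3% and 54.9% in *kdm3a* MO 3 and 4. *sox10* gave 48.1% in control 1 and between 20.8% and 32.0% in the other 5 libraries, and *sox8* gave 32.6% in control 1 and between 13.9% and 28.5% in the others. Control 1 was the only library with more counts of *sox10*, or of *sox8*, than of *sox9*.

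The log2 ratio of *sox10* to *sox9* counts was 1.32 in control 1 and -1.39 in control 2, -0.69 and -0.68 in *kdm5c* MO 1 and 2, and -1.65 and -1.17 in *kdm3a* MO 3 and 4. The *kdm5c* MO libraries thus lay between the controls, and the *kdm3a* MO libraries lay on both sides of control 2. For *sox8* to *sox9* the log2 ratio was 0.76 and -2.11 in the controls, -0.63 and -1.61 in *kdm5c* MO embryos and -2.23 and -1.41 in *kdm3a* MO embryos. *sox10* to *sox8* varied less, between -0.056 in *kdm5c* MO 1 and 0.93 in *kdm5c* MO 2, with both controls in between at 0.56 and 0.72. In a two-sided exact permutation test with 2 libraries against 2, which cannot go below p = 0.33, the 6 comparisons of *sox8* or *sox10* with *sox9* gave p of 0.33 to 1, and all adjusted values over the 15 ratios tested were 0.91 or above. The lowest p was reached by *sox10* to *sox9* in *kdm3a* MO against *kdm5c* MO embryos, with means of -1.41 ± 0.34 and -0.69 ± 0.0057 (log2 ratio, SD, n = 2).

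**Figure D3:**
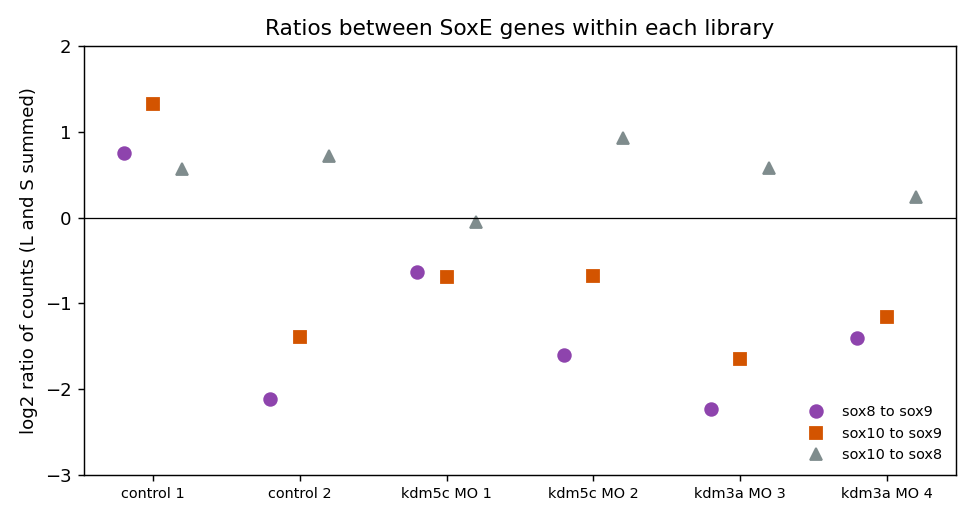
Log2 ratios of counts between SoxE genes (vertical axis, L and S copies summed) in each of the 6 libraries. The ratios of *sox8* and *sox10* to *sox9* are above 0 in control 1 alone, at 0.76 and 1.32, whereas *sox10* to *sox8* stays between -0.056 and 0.93.

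The Pearson correlation of log2 CPM between the L and S copies was 0.973 for *sox10*, 0.865 for *sox9* and 0.86 for *sox8* over the 6 libraries. Over the 5 libraries without control 1 it was 0.822 for *sox10*, 0.88 for *sox9* and 0.123 for *sox8*, so the likeness of the *sox8* copies rested on control 1. The points share their library and its scaling. The share of the L copy in the counts of *sox10* was 41.3% and 45.7% in the controls, 40.1% and 45.8% in *kdm5c* MO 1 and 2, and 48.3% and 43.7% in *kdm3a* MO 3 and 4. For *sox8* it was 61.7% and 53.9% in the controls, 70.3% and 54.9% in *kdm5c* MO embryos, and 56.0% and 53.7% in *kdm3a* MO embryos. For *sox9* it was 46.5% and 43.0% in the controls, 32.8% and 47.0% in *kdm5c* MO embryos, and 49.6% in both *kdm3a* MO libraries.

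*kdm5c* MO 1 stood apart, with the highest L share of *sox8* and the lowest of *sox9*. Its 95% Wilson interval was 64.2% to 75.8% for *sox8* (166 of 236 counts) and 28.2% to 37.8% for *sox9* (120 of 366 counts), and 61.6% to 77.8% and 26.4% to 39.9% when counts were halved to stand for fragments. These intervals cover counting error only. Its shares lay 8.60 and 10.2 percentage points outside the range of the other 5 libraries. Among 5495 pairs of L and S copies with at least 100 counts in every library, *kdm5c* MO 1 lay more than 5 points outside that range in 882 pairs (16.1%), control 1 in 18.5%, *kdm3a* MO 3 in 15.9% and the other 3 libraries in 5.30% to 7.44%. The exact permutation tests of the log2 L to S ratio gave p of 0.33 to 1 in the 9 comparisons, but with 0.33 as the smallest p possible these tests could not show a difference. For *sox9*, the log2 L to S ratio was -0.021 and -0.022 in the *kdm3a* MO libraries and -0.20 and -0.41 in the controls. It was -1.04 and -0.17 in *kdm5c* MO 1 and 2. The *kdm3a* MO values were thus the highest of the 6 libraries. With counts halved, the interval of the L share in *kdm5c* MO 2 was 41.8% to 52.3%, which holds the 49.6% of both *kdm3a* MO libraries. How many of the 5495 pairs showed such an order was not counted, so nothing is concluded from it.

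**Figure D4:**
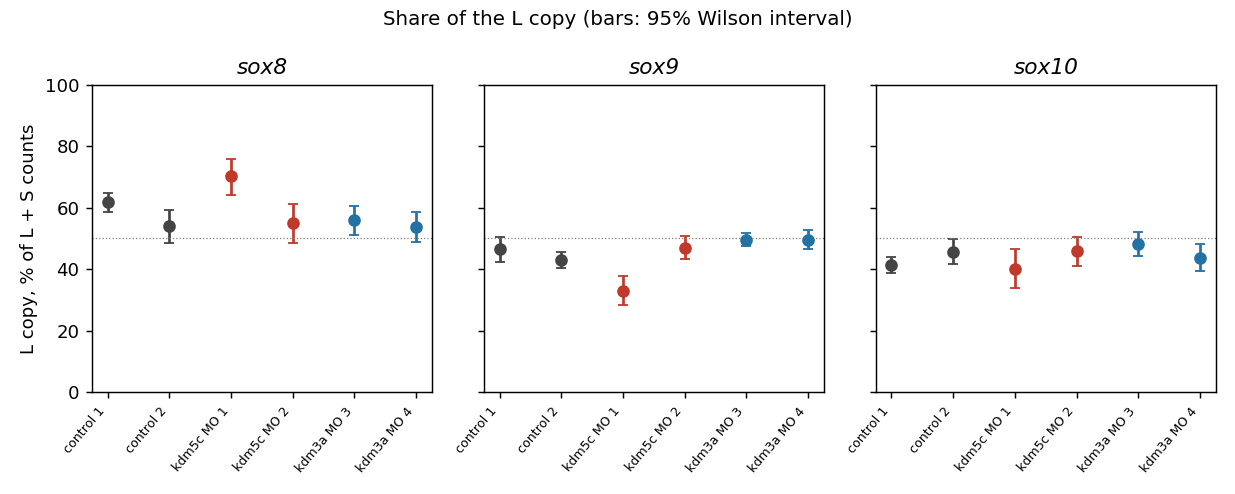
Share of the L copy in the summed L and S counts of *sox8*, *sox9* and *sox10* (percent, axis from 0 to 100) in the 6 libraries, coloured by group, with 95% Wilson intervals as bars. *kdm5c* MO 1 has the highest *sox8* share, 70.3%, and the lowest *sox9* share, 32.8%, while the *sox10* shares lie between 40.1% and 48.3%.

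The other genes of the neural crest network were read from fixed lists. Of 36 copies of crest specifiers other than SoxE, 0 passed the limits in *kdm5c* MO against control, 0 were lower or higher at an unadjusted p below 0.05, and 23 had a negative and 13 a positive log2 fold change, with a median of -0.18 where the median of all genes was -0.016. Without control 1 the signs turned, with 13 negative, 23 positive and a median of 0.29. The lowest p values of the exact test belonged to *tfap2c.S*, which encodes an AP-2 factor of the early crest, at 34.5 and 31.8 CPM in controls and 13.0 and 15.4 CPM in *kdm5c* MO embryos (log2 fold change -1.22, p = 0.0524), and to *ets1.S*, an ETS factor of the cranial crest, at 49.4 and 20.8 against 5.45 and 17.2 CPM (log2 fold change -1.62, p = 0.0554). In both, the *kdm5c* MO values lay under both control values, as they did for 17.9% of all genes tested. Both copies were named for their low p, and neither passed after adjustment (adjusted p = 1, exact test). *ets1.S* had its highest value in control 1, like *sox10*, and was at 11.4 and 14.2 CPM in *kdm3a* MO embryos (log2 fold change -1.47, p = 0.0376), the 1 copy of this list with p below 0.05 against control. Without control 1, 0 copies of the list had p below 0.05 in either comparison.

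SoxD proteins, the family of *sox5*, *sox6* and *sox13*, work beside *sox9* on cartilage genes in the mouse. All 4 copies tested had negative log2 fold changes in *kdm5c* MO embryos, with a median of -1.21, and in *kdm3a* MO embryos, with a median of -1.11, and 0 of 4 reached an unadjusted p of 0.05 in either. Without control 1 the medians were -1.005 and -0.63, with 3 of 4 signs negative in each. *sox5.S* was at 41.5 and 15.7 CPM in the controls, 3.33 and 12.81 CPM in *kdm5c* MO 1 and 2, and 4.14 and 17.4 CPM in *kdm3a* MO 3 and 4. Its lowest values fell in 1 library of each MO group, and *kdm3a* MO 4 lay above control 2.

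Genes of the derivatives in which SoxE genes act had other orders of the libraries. Pigment cell genes, among them known SOX10 targets in mammals, had their lowest median in control 1, at a log2 deviation of -1.77 from the mean of each gene over 15 copies, against 0.020 to 0.76 in the other 5 libraries. *slc45a2.L*, a transporter of the melanosome, was at 0.402 and 24.8 CPM in the controls, 27.8 and 17.7 CPM in *kdm5c* MO and 11.7 and 10.9 CPM in *kdm3a* MO embryos, and *mlana.S* was at 0 counts in control 1 and at 2.30 to 17.3 CPM in the others. In *kdm5c* MO against control, 12 of 16 pigment copies tested had a positive sign, with a median of 0.23, and 0 reached an unadjusted p of 0.05 in either direction. Without control 1, 10 of 17 had a negative sign and the median was -0.27.

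Cartilage genes, which include targets of *sox9*, were also lowest in control 1, at a median deviation of -0.78 over 20 copies. *col2a1.S*, the main fibrillar collagen gene of cartilage, was at 252 and 565 CPM in the controls, 308 and 306 CPM in *kdm5c* MO and 404 and 679 CPM in *kdm3a* MO embryos. Both *kdm3a* MO libraries were thus above both *kdm5c* MO libraries (log2 fold change 0.81, p = 0.179, exact test). *sox9* had this order too, as did 18.4% of all genes tested. *col2a1.S* was named because it had the lowest p of its list in this comparison. The cartilage list held 15 positive and 5 negative signs in *kdm3a* MO over *kdm5c* MO, with a median of 0.26 where that of all genes was 0.035, and 0 of 20 copies reached an unadjusted p of 0.05. In *kdm5c* MO against control, 14 of 22 copies had a positive sign, with a median of 0.25. Without control 1, 15 of 22 had a negative sign and the median was -0.14. In *kdm3a* MO against control the median was 0.37, and 0.18 without control 1.

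Genes of glia and Schwann cell precursors and of autonomic and enteric neurons had medians between -0.19 and 0.39 in the 3 comparisons. Without control 1 the autonomic and enteric list had a median of -0.51 in *kdm5c* MO and -0.37 in *kdm3a* MO embryos, with 17 of 19 and 14 of 19 signs negative, and the glial list medians of 0.036 and 0.048. The glial list had a median deviation of -0.62 in control 1, and *kdm5c* MO 1 was lower at -0.74. Its sum was 151 CPM in control 1 and 261 CPM in control 2, within a range from 116 CPM in *kdm3a* MO 4 to 340 CPM in *kdm5c* MO 2. Control 1 was the highest library for 4 of 11 copies of this list, beside 22.8% of all genes. Among these was *egr2.L*, which marks Schwann cells and also hindbrain segments, at 21.3 CPM in control 1 and at 2.12 to 3.84 CPM in the other 5 libraries. *fabp7.L*, a gene of glial precursors, was at 4.55 and 173 CPM in the controls, 252 and 241 CPM in *kdm5c* MO and 61.5 and 13.4 CPM in *kdm3a* MO embryos, with a log2 fold change of -2.72 between the MO groups (p = 0.000896, adjusted p = 0.317, edgeR's exact test). It and *mal.L* were the 2 of 11 glial copies tested that were lower at p below 0.05 in that comparison, beside 3.13% of all genes. Neither passed the limits, while 8 of the 11 copies tested had a positive sign and the median was 0.18.

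In the list of the otic placode, where *sox8*, *sox9* and *sox10* are all used, *pax2.S* was at 27.2 CPM in control 1 and between 5.91 and 7.98 CPM elsewhere, and *pax8.L* at 25.9 CPM in control 1 and between 3.64 and 8.79 CPM elsewhere. Both are also genes of the pronephros, and both had control 1 as the highest library, as *sox8* and *sox10* had. The later ear gene *otog.S* was at 0.201 CPM in control 1 and 63.6 CPM in control 2. It was at 32.3 and 22.8 CPM in *kdm5c* MO 1 and 2, and at 1.90 and 27.0 CPM in *kdm3a* MO 3 and 4, so *kdm3a* MO 3 was low too. The otic list gave 14 negative and 6 positive signs in *kdm5c* MO against control, with a median of -0.26, and 0 of 20 at an unadjusted p below 0.05. Without control 1 it gave 8 negative and 12 positive signs, with a median of 0.075. Pharyngeal arch genes had medians of 0.22 in *kdm5c* MO and 0.0032 in *kdm3a* MO embryos against control, with 0 of 23 copies at an unadjusted p below 0.05. Without control 1 their medians were 0.044 and -0.077.

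**Figure D5:**
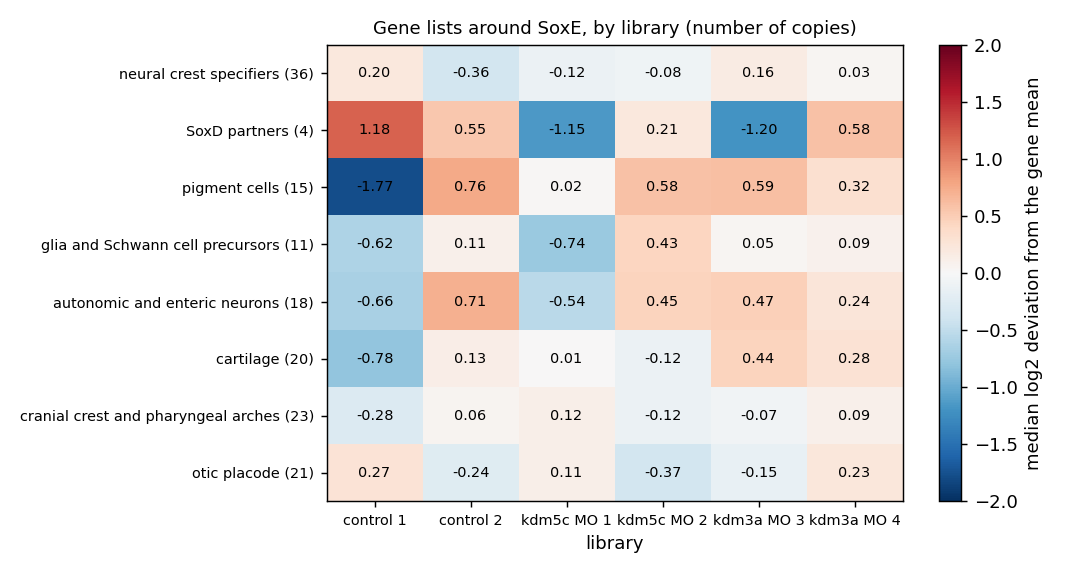
Median log2 deviation of TMM-normalized CPM from the mean of each gene over the 6 libraries (colour scale and printed values), for 8 gene lists around SoxE (rows, with the number of copies of at least 1 CPM) and 6 libraries (columns). Control 1 is the lowest library for pigment cells (-1.77), cartilage (-0.78), autonomic and enteric neurons (-0.66) and cranial crest and pharyngeal arches (-0.28). It is the highest for SoxD partners (1.18), the otic placode (0.27) and crest specifiers (0.20, with *kdm3a* MO 3 at 0.16).

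Other tissues also differed between the libraries. The skeletal muscle list summed to 5244 and 13671 CPM in the controls, 44397 and 13862 CPM in *kdm5c* MO and 27115 and 13479 CPM in *kdm3a* MO embryos, and the neuron list to 433 and 1170, 1581 and 1077, and 1018 and 555 CPM. Both lists were lowest in control 1, with 0 of their copies past the limits in any comparison, and 6 of 20 muscle copies were higher at an unadjusted p below 0.05 in *kdm5c* MO embryos, beside 3.29% of all genes. Without control 1, 19 of 20 muscle copies had a positive sign in *kdm5c* MO embryos, with a median log2 fold change of 1.22. The muscle sum of *kdm5c* MO 2 was nevertheless close to that of control 2, at 13862 against 13671 CPM. *kdm5c* MO 1 was the highest library for 15 of 20 muscle copies, beside 22.9% of all genes. The blood list was lowest in control 1 as well, while the epidermis list summed to 22264 and 15754 CPM in the controls and 11487 to 26941 CPM in the MO libraries. The innate immune list summed to 151 and 213 CPM in the controls, 1661 and 256 CPM in *kdm5c* MO and 2946 and 885 CPM in *kdm3a* MO embryos, so that *kdm5c* MO 2 lay near the controls. In *kdm3a* MO embryos 9 of its 23 copies rose past the limits in the exact test, beside 0.125% of all genes, among them *csf3.L* and *junb.L*. By the quasi-likelihood test 0 genes passed there, and *csf3.L* had only 2 and 4 counts in the controls. This list was chosen with earlier results of these data known, so its share beside that of all genes is not independent evidence. In *kdm5c* MO embryos 12 of 19 were higher at an unadjusted p below 0.05, beside 3.29% of all genes, where *csf3.L* was at 54.8 CPM in *kdm5c* MO 1 and 0.758 CPM in *kdm5c* MO 2. Without control 1 the median log2 fold change of the list was 4.14 in *kdm3a* MO and 3.04 in *kdm5c* MO embryos. What part these differences between libraries had in the SoxE values was not tested.

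The genes whose level over the 6 libraries was most like that of a SoxE gene were listed by Pearson correlation of log2 CPM, with L and S copies summed, among 11631 genes with a mean of at least 5 CPM. For *sox8* these were *gata2* and *iqgap2* (both 0.994) and *ano5* (0.993), for *sox10* *tgs1* and *mpzl2* (both 0.991) and *sh3bgrl* (0.990), and for *sox9* *fam120a* (0.998), *app* (0.996) and *reep1* (0.992). Without control 1 the correlations were 0.938 to 0.953 for the genes like *sox8*, 0.845 to 0.89 for those like *sox10*, and 0.992 or more for those like *sox9*. These genes had been picked by their correlation over the 6 libraries, which include these 5, so high values here are no separate check. A correlation over 0.9 was reached by 258 genes for *sox8*, 258 for *sox10* and 171 for *sox9*. *sox8* and *sox10* correlated with each other at 0.885 over 6 libraries and at -0.369 over the 5 without control 1, and *sox9* with *sox10* at -0.35 and 0.663. *gata2* was at 142 CPM in control 1 and at 16.4 to 37.3 CPM elsewhere, and *app* at 84.7 and 156 CPM in the controls, 84.4 and 110 CPM in *kdm5c* MO and 174 and 134 CPM in *kdm3a* MO embryos, close to the order of *sox9*.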

How the data were processed

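The authors mapped the reads with BWA to cDNA sequences of the genome project and deposited, for each gene model, unnormalized read counts that keep the L and the S copy separate. The version of BWA is 0.7.10 in the submitters' processing notes. How pairs and reads matching several cDNAs were counted is not given in the sources used here. Of 35773 models, 26547 carry a symbol. All 6 columns were matched to samples by label.

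Genes that passed filterByExpr were normalized by TMM and compared, each comparison in its own 4 libraries, by the exact test of edgeR 4.0.16 (R 4.3.3), with an FDR below 0.01 and more than 4-fold as limits, as the methods of the study name them. Correlations and deviations used log2(CPM + 0.5). Ratios were compared by exact permutation tests (scipy 1.17.1). The test was tried on simulated data.

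The members and gene lists were chosen with earlier results of these data known. The named genes were to be the SoxE copies, genes of the lists past the limits, the 3 copies of each list with the lowest p in each comparison, and the 3 genes most like each SoxE gene. The text gives part of these. No sequence or coordinate was used.

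Alternatives were scaling by library size only or by median-of-ratios size factors, other filters, the quasi-likelihood test with and without a replicate block, DESeq2 1.42.0, all 6 libraries, summed copies, an FDR of 0.05, and each library left out. Overlap by library size only, and gene lists and copy correlations without control 1, were added after the data were seen.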

Additional observations from a re-analysis of the deposited data

How the results depend on the processing

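Of 222 values of the SoxE copies under other settings, 13 changed sign, 0 passed the limits, and the lowest adjusted p was 0.197. The value of summed copies was entered in these for both the L and the S copy. In *kdm3a* MO against *kdm5c* MO, *sox8.L* became 0.35 by library size only. The summed *sox8* copies gave 0.19, which was counted as a change of sign of *sox8.L*. Leaving out 1 library at a time gave -1.645 to 0.32 for *sox8.L*, -1.25 to 0.0086 for *sox9.L* and -0.86 to 0.32 for *sox9.S* in *kdm5c* MO against control, -1.70 to 0.27 for *sox8.L*, -1.27 to 0.23 for *sox8.S* and -0.23 to 0.95 for *sox9.S* in *kdm3a* MO against control, and -0.39 to 0.47 for *sox8.L*, -0.059 to 0.62 for *sox10.L* and -0.064 to 0.28 for *sox10.S* between the MO groups. In the first 2 comparisons the sign changes came without control 1 or control 2, and in the last without *kdm5c* MO 1, *kdm3a* MO 3 or *kdm3a* MO 4. The cause was not tested.

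Genes past the limits in *kdm5c* MO against control, 0 at first, numbered 2 with at least 10 counts in every library, 7 by DESeq2, 2 with all 6 libraries, 1 with summed copies, 2 at an FDR of 0.05 without a fold limit, and 0 to 220 with a library left out, 220 without control 2 and 11 without control 1. The 33 genes of *kdm3a* MO against control became 19 with at least 10 counts, 0 by the quasi-likelihood test, 82 by DESeq2, 10 with all 6 libraries, 59 at an FDR of 0.05, and 4 to 358 with a library left out. The 14 genes between the MO groups became 6, 0, 23 and 0 under the first 4 of these, 20 at an FDR of 0.05, and 9 to 38 with a library left out. Where a group kept 1 library, it was assumed to vary like the other group.

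Library size only moved the median over all genes (log2) from -0.016 to -0.34 in *kdm5c* MO against control and from 0.035 to 0.34 between the MO groups, and the genes with p below 0.05 before adjustment from 263 (lower) and 860 (higher) to 356 and 300, and from 816 and 397 to 317 and 663. With the replicate block, 0 genes passed in *kdm5c* MO against control, 320 (lower) and 761 (higher) had p below 0.05 before adjustment, and *sox10.S* was at -1.01 (adjusted p = 0.891, edgeR's quasi-likelihood test). Deviations of same-numbered libraries correlated at 0.237 over 27277 genes, and the labels give the numbers no shared clutch. The block and this correlation used the numbers in the titles. By the descriptions the second control and *kdm5c* MO 2 do not share a number. By their titles the other comparisons share 0 numbers, and by the descriptions *kdm3a* MO and control share 1, so no paired analysis of them was possible. With 2 libraries a group, no outlier could be tested.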
